A study of Mus musculus with 15 samples.

Results

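Enzymes of the urea cycle and further liver enzymes of amino acid breakdown were followed in ribosome profiling libraries, in which each read is a fragment of mRNA that a ribosome protected from nuclease. The members were every RefSeq transcript of 6 urea cycle genes and 3 others, chosen by gene symbol, and those described are Cps1, Otc, Ass1, Asl, Nags, Gls2, Hal and Sds. The rule gave 11 transcripts of 9 genes, of 28167 transcripts and 20192 named genes in all, and all 11 passed the filter of a mean of at least 10 reads per library. Whole livers came from wild-type C57BL/6N male mice, given as 8 to 10 weeks old at entrainment to light and dark. They had lived in cycles of 12 h of light and 12 h of dark for 2 weeks, and sampling began 24 h after release into constant darkness. Livers were collected every 4 h over 24 h, at 7 circadian times (CT) from CT0 to CT24, with 2 mice and thus 2 libraries at each time and 14 libraries in all. Every mouse had the same genotype, so the comparison is between times, and only 1 cycle was sampled. Later times also had a longer stay in darkness, and these cannot be told apart.

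The urea cycle turns ammonia, which is toxic, into urea that the kidney excretes, and in mammals the complete cycle runs in the hepatocytes around the portal vein. Its first steps lie in the mitochondrion. Nags makes N-acetylglutamate, without which Cps1 is inactive, Cps1 joins ammonia and bicarbonate into carbamoyl phosphate, and Otc passes this onto ornithine to give citrulline. In the cytosol Ass1 joins citrulline to aspartate, and Asl splits the product into fumarate and arginine, from which urea is made. Of the other 3 enzymes, Gls2 frees ammonia from glutamine in liver mitochondria, Hal takes the amino group from histidine, and Sds turns serine into pyruvate and ammonia.

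The sequences that surround the start codons are shown because the libraries count reads before and after this point separately. They are 12 bases of the leader (the 5′ untranslated region, 5′UTR), the start codon in capitals, and the 9 bases after it, from the mouse genome GRCm38.p6, the same assembly as the mm10 build of the files. The gene models lie at chr1:67123027-67231267 for Cps1, chrX:10252305-10321024 for Otc, chr2:31470270-31520670 for Ass1, chr5:130011258-130024381 for Asl, chr11:102145513-102149528 for Nags, chr10:128194635-128210004 for Gls2, chr10:93488768-93516761 for Hal and chr5:120476547-120483905 for Sds. Asl is on the minus strand and the other 7 on the plus strand. The windows of Ass1 and Sds cross an intron.
Cps1: aacatcttcaaaATGacgaggatt
Otc: agcaaaaagaagATGctgtctaat
Ass1: atccaagacaagATGtccagcaag
Asl: gaaccgcccaacATGgcatcagag
Nags: ttggttgtcgtcATGgcgacggcg
Hal: agcatctgagccATGcctaggtac
Sds: cctgtgccggccATGgctgcccag
Gls2 long form: cgcgccgggggcATGcgctccatg
Every one of these 8 starts has a purine 3 bases before the start codon, as do 84.6% of 22962 RefSeq transcripts. Asl, Nags and Sds also have a G directly after it, a pair of features found in 41.6% of those transcripts. An upstream open reading frame (uORF, a start codon and a stop codon in frame inside the leader), is shown for Cps1 because its leader carried many reads. Its uORF has 15 bases, ends 29 bases before the coding region and lies at chr1:67123121-67123135, with its start and stop codons in capitals.
Cps1 uORF: ATGagatatttgTGA
Ass1 has a uORF of 57 bases and Hal 1 of 33 bases. Nags, Sds and the long form of Gls2 have none. A uORF that ends in the leader was found in 43.9% of the 22984 transcripts whose model fitted the lengths in the files, and 1 that overlaps the coding region in 17.3%. The leader lengths of Otc and Asl in the files differed from this annotation, so their leaders were not searched. A uORF found this way is a stretch of letters, and whether it is translated was not tested, since the files give reads per region and not per position.

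Read totals per library ranged from 40593197 to 90458783 reads on mRNA, and major urinary protein (Mup) transcripts took 42.1% to 70.7% of them. The reads were therefore scaled by TMM, a method that keeps a few abundant transcripts from setting the scale, and are given as CPM, the counts in every 1000000 reads of a library after scaling. Against scaling by the plain total, TMM moved single libraries by -0.55 to 0.44 on the log2 scale. The shift differed by time, with -0.55 and -0.33 at CT0, 0.13 and 0.39 at CT8, and 0.16 and 0.44 at CT12. It also differed within a time, with -0.41 and 0.06 at CT16. The choice of scale can therefore change the size and time of a fitted peak. The 9 genes took 0.378% to 0.871% of all reads, and 1.28% to 1.70% of the reads outside Mup. Hepatocyte markers summed to 31904 to 44699 CPM, and 3 of 6 kidney tubule markers and 4 of 7 intestinal markers had no read in any library. The other 3 kidney markers together reached at most 0.0759 CPM, and of the other 3 intestinal markers Fabp2 had 15.2 to 25.8 CPM and Vil1 and Lct at most 0.304 CPM. The replicate 2 library of CT20 stood apart, with 8 pancreatic acinar genes summing to 3937 CPM against 2.55 to 77.6 CPM in the other 13 libraries. Without it 1848 transcripts were called rhythmic in place of 1947, and the calls of the members below stayed as they were, with adjusted p of 1.0e-04 for Asl, 0.0087 for Sds and 0.0095 for Hal in edgeR. In whole liver, fewer cells of a type and less RNA per cell cannot be told apart.

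Over the day, reads of Asl, Sds and Hal followed a 24-h rhythm and each peaked at a different time. The test was edgeR's quasi-likelihood F test of a 24-h cosine with Benjamini-Hochberg adjustment over 17299 transcripts, and a call is an adjusted p under 0.05. It called 3 of the 11 member transcripts, and 11.3% of all transcripts tested. Counted by gene, with the transcript that had the most reads for each, these were 3 of 9 genes against 11.2% of 11736 genes. The plot of reads by time gives every library. Fitted values below are the difference from peak to trough on the log2 scale with its standard error, and the fitted peak time.

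**Figure D1:**
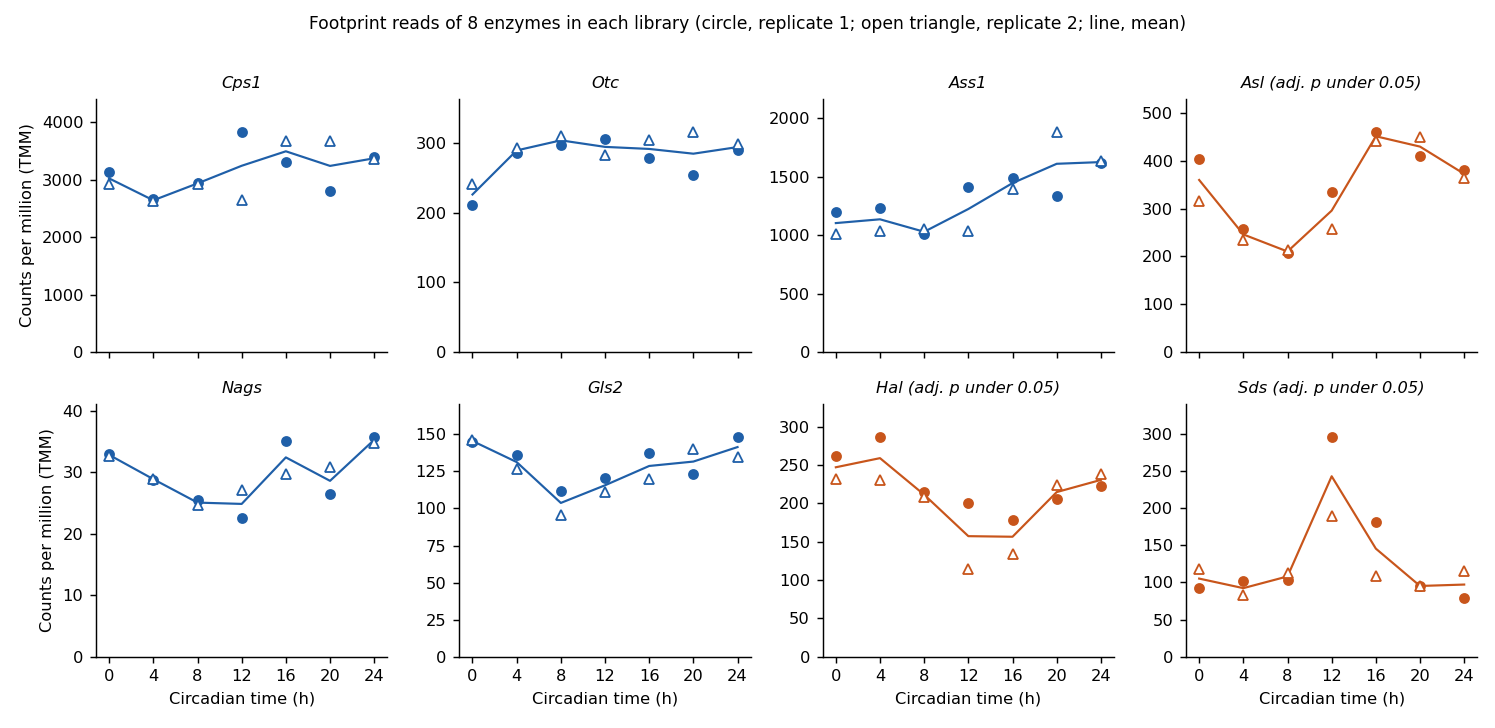
Reads of 8 enzymes in CPM with TMM scaling (vertical axis, from 0) against circadian time in hours (horizontal axis). Each circle or open triangle is 1 mouse and each line joins the means of 2 mice; the 3 enzymes called rhythmic are orange, with Asl low at CT8 and high at CT16 and CT20, Hal low at CT12 and CT16, and Sds high at CT12.

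Asl, argininosuccinate lyase, had the lowest adjusted p of the members. Its reads were 403 and 317 CPM at CT0, 257 and 235 at CT4, 207 and 213 at CT8, 334 and 258 at CT12, 461 and 443 at CT16, 411 and 449 at CT20, and 382 and 364 at CT24. All 4 libraries of CT16 and CT20 lay above the other 10, and both libraries of CT8 lay below the other 12. The mean at CT16, 452 ± 12.7 CPM (SD, n = 2), was 2.15 times that at CT8, 210.4 ± 4.22 CPM (SD, n = 2). The fit put the peak at CT19.0 ± 0.35 h with a peak to trough of 1.14 ± 0.11 (adjusted p = 3.2e-05 in edgeR, n = 14 libraries). Fitted on each replicate series alone, the peak to trough was 1.09 and 1.19 and the peak CT18.9 and CT19.0. Asl kept its call in all 35 other settings of the test. The lowest adjusted p was 4.0e-14, in DESeq2's likelihood ratio test. The highest value, 0.0079, was the P of the rank test JTK_CYCLE, which was adjusted within each transcript only.

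Sds, serine dehydratase, was high around CT12, the start of the subjective night. It had 92.0 and 118 CPM at CT0, 102 and 82.6 at CT4, 103 and 113 at CT8, 296 and 189.5 at CT12, 182 and 109 at CT16, 95.2 and 95.2 at CT20, and 79.3 and 115 at CT24. Both libraries of CT12 and 1 of CT16 stood above all others, and the remaining 11 lay between 79.3 and 118 CPM. The mean was 243 ± 75.0 CPM (SD, n = 2) at CT12, 2.63 times the lowest mean, 92.2 ± 13.7 CPM (SD, n = 2) at CT4. The fitted peak was CT13.0 ± 1.2 h with a peak to trough of 1.07 ± 0.28 (adjusted p = 0.0088 in edgeR). The replicate series gave 1.50 and 0.52 for the size and CT13.1 and CT12.7 for the time, a difference in size that was not tested. Without CT12 the peak to trough was 0.55 and the call was lost (adjusted p = 0.26), and it was also lost with plain total counts (0.81, adjusted p = 0.17). On that scale the CT12 libraries had 265 and 139 CPM and those of CT0 had 134 and 148, which overlap.

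Hal, histidine ammonia-lyase, ran nearly opposite to Sds. Its reads were 262 and 232 CPM at CT0, 287 and 231 at CT4, 214 and 208 at CT8, 199.8 and 115 at CT12, 178 and 135 at CT16, 205 and 224 at CT20, and 222 and 239 at CT24. The 4 libraries of CT12 and CT16 were the lowest of the 14, and the highest was at CT4. The mean at CT4, 259 ± 39.4 CPM (SD, n = 2), was 1.65 times that at CT16, 156 ± 31.0 CPM (SD, n = 2). The fitted peak was CT2.2 ± 0.89 h and the peak to trough 0.73 ± 0.17 (adjusted p = 0.011 in edgeR). Hal lost its call in the test of any difference among the 7 times (adjusted p = 0.15, a test that called 7.08% of transcripts) and without CT16 (adjusted p = 0.060).

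The 2 enzymes were also compared within libraries, where no scaling enters. The ratio of Hal to Sds reads was 2.85 and 1.96 at CT0, 2.81 and 2.80 at CT4, 2.08 and 1.85 at CT8, 0.676 and 0.605 at CT12, 0.982 and 1.23 at CT16, 2.16 and 2.35 at CT20, and 2.80 and 2.08 at CT24. Only at CT12 and in 1 library of CT16 did Sds have more reads than Hal. Across the 7 time means the log2 levels of Hal and Sds had r = -0.87. Over the 14 libraries r was -0.46 and Spearman's rho -0.47, and the deviations of the mice from their time means went the other way, at r = 0.75. These correlations share libraries and scale and are given as descriptions.

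Ass1 and Asl catalyse consecutive steps, and the fitted peaks of the 2 fell close together, at CT19.3 ± 1.1 h for Ass1. Argininosuccinate synthetase, Ass1, had 1195 and 1010.5 CPM at CT0, 1231 and 1039 at CT4, 1006 and 1050.1 at CT8, 1412 and 1035 at CT12, 1492 and 1398 at CT16, 1338 and 1882 at CT20, and 1615 and 1634 at CT24. The peak to trough was 0.61 ± 0.19 and missed the threshold (adjusted p = 0.062 in edgeR). The highest library was the replicate 2 library of CT20, the same that held pancreatic acinar reads. Without it the peak to trough was 0.48 (adjusted p = 0.22). With plain total counts Ass1 passed (0.99, adjusted p = 0.035), as it did with coding reads alone (0.59, adjusted p = 0.035) and with DESeq2 (0.61, adjusted p = 0.018).
The ratio of Asl to Ass1 reads, which needs no scaling, was 0.326 ± 0.017 at CT0, 0.205 ± 0.0020 at CT8, 0.313 ± 0.0057 at CT16, 0.273 ± 0.048 at CT20 and 0.230 ± 0.0097 at CT24 (SD, n = 2 each). The CT20 pair spread most, at 0.307 and 0.239, the second in the library with pancreatic acinar reads. The ratio was lower at CT24 than at CT0, and the libraries of those 2 times did not overlap.

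Nags and Gls2, the makers of the Cps1 activator and of ammonia, had fitted peaks late in the subjective night that did not pass. Nags had 32.9 and 32.7 CPM at CT0, 28.8 and 28.9 at CT4, 25.5 and 24.6 at CT8, 22.5 and 27.2 at CT12, 35.1 and 29.7 at CT16, 26.4 and 30.8 at CT20, and 35.8 and 34.8 at CT24. Its fit had a peak at CT21.9 ± 1.1 h and a peak to trough of 0.41 ± 0.11 (adjusted p = 0.10 in edgeR). Gls2 had 145 and 146 CPM at CT0, 136 and 127 at CT4, 112 and 95.7 at CT8, 120.3 and 111 at CT12, 138 and 119.8 at CT16, 123 and 140.2 at CT20, and 148 and 134 at CT24. Its lowest library was at CT8 and its peak to trough 0.39 ± 0.09, with a fitted peak at CT22.2 ± 0.91 h (adjusted p = 0.061 in edgeR). The sizes were larger with plain total counts, 0.92 for Nags (adjusted p = 0.078) and 0.88 for Gls2 (adjusted p = 0.071), and neither passed. Both passed in DESeq2's likelihood ratio test, Gls2 with adjusted p = 0.018 and Nags with adjusted p = 0.048. Over the 14 libraries the log2 levels of the 2 genes had r = 0.78 and Spearman's rho 0.79, again over shared libraries and scale.
The 3 Gls2 transcripts are not independent. They share exons, had nearly equal totals of 107213, 103340 and 107215 reads, and their fitted peak to trough ran from 0.39 to 0.40.

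Cps1 and Otc did not pass in any setting tried and had the smallest fitted differences of the 8 genes described. Cps1, the most heavily read of them with 2641746 reads over the 14 libraries, had 3124 and 2915 CPM at CT0, 2657 and 2621 at CT4, 2941 and 2925 at CT8, 3828 and 2652 at CT12, 3311 and 3673 at CT16, 2805 and 3670.2 at CT20, and 3385 and 3355 at CT24. The pairs at CT12 and CT20 spanned most of the range of the whole series. The peak to trough was 0.32 ± 0.14 (adjusted p = 0.31 in edgeR), and 0.65 with plain total counts (adjusted p = 0.17). Otc had a peak to trough of 0.19 ± 0.11 (adjusted p = 0.55 in edgeR), which was 0.12 without CT0 replicate 1 and 0.06 without CT0, and its only departure was at CT0, where 211 and 241 CPM lay below the 253 to 316 CPM of the other 12 libraries. With plain total counts the CT0 libraries of Otc had 309 and 302 CPM, inside the range of the others, and the fitted peak of Otc moved from CT11.0 to CT21.5.

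**Figure D2:**
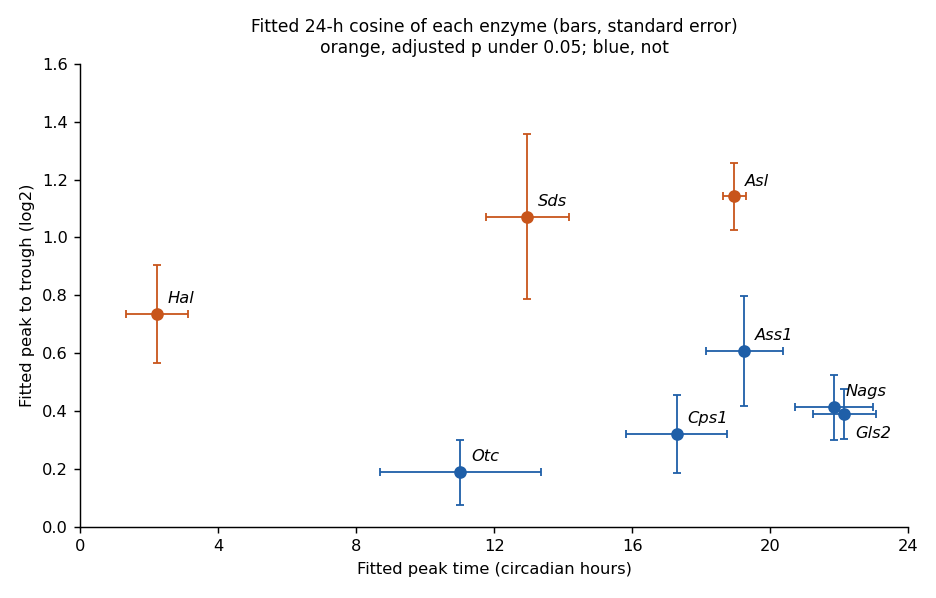
Fitted peak time in circadian hours (horizontal axis) and fitted log2 peak to trough (vertical axis) of 8 enzymes, with standard errors from a least-squares fit of 14 libraries. Asl, Sds and Hal (orange, adjusted p under 0.05) stand at CT19.0, CT13.0 and CT2.2, and of the 5 in blue Ass1 is the highest at 0.61.

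The ratios of reads within a library set these patterns side by side without a scale. Asl over Cps1 was 0.129 and 0.109 at CT0, 0.0705 and 0.0729 at CT8, 0.139 and 0.121 at CT16, and 0.146 and 0.122 at CT20. Otc over Cps1 was lowest at CT0, at 0.0677 and 0.0825, and highest at CT4, at 0.107 and 0.112. The CT0 and CT4 libraries did not overlap, but these times were picked as the lowest and highest means, with 2 libraries each. A gap between times picked in this way can arise without any change over time, and this ratio was not tested. Cps1 alone took 52.5% to 59.8% of the reads on the 6 urea cycle genes. Within the libraries, then, the 2 ratios had different courses, with Asl over Cps1 lowest at CT8, where Otc over Cps1 was high.

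**Figure D3:**
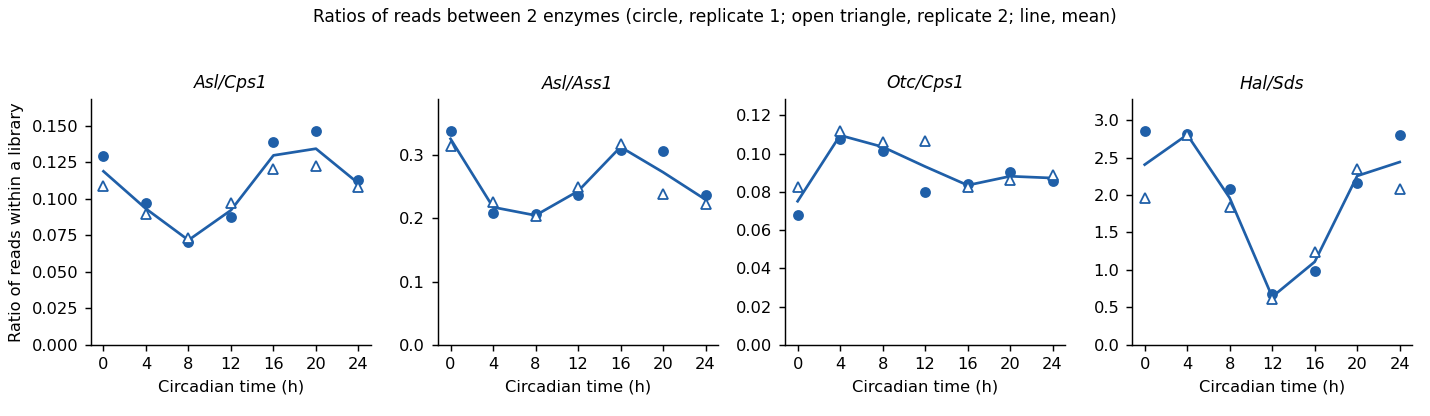
Ratios of read counts between 2 enzymes in the same library (vertical axes, from 0, no unit) against circadian time in hours. Circles and open triangles are the 2 mice and lines their means: Asl/Cps1 and Asl/Ass1 are lowest at CT8, Otc/Cps1 is lowest at CT0, and Hal/Sds is lowest at CT12.

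JTK_CYCLE, the rank test for rhythms that the study used, was run on 2 scales, with an exact null distribution and P adjusted within each transcript only. On TMM CPM the exact test called Asl (P = 4.7e-05), Hal (P = 0.0016) and the 3 Gls2 transcripts (P = 0.0079), and 17.7% of all transcripts. Sds and Nags had an exact P of 0.064 each. On plain total CPM the exact test called Asl (P = 0.0079), Hal (P = 0.013), Nags (P = 0.013) and Gls2 (P = 0.030 to 0.044), and 22.2% of all transcripts. On this scale Sds had an exact P of 0.66. Asl and Hal were called on both scales and by edgeR, whereas Sds was called by edgeR and not by JTK_CYCLE.

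CT0 and CT24 are the same clock time 1 day apart. No member transcript differed between them, nor did any of the 17299 transcripts (0.0%) in edgeR at an adjusted p under 0.05, while 873 transcripts and 2 of the 11 members had an unadjusted p under 0.05. The 2 members were Ass1, higher at CT24 by 0.56 ± 0.19 (log2, SE, adjusted p = 0.96 in edgeR), and Otc, higher by 0.38 ± 0.15 (adjusted p = 0.96 in edgeR). The other 6 genes described differed by -0.11 to 0.16. With plain total counts the differences were 0.24 for Ass1 and 0.08 for Otc, and the other 6 were negative. The sizes thus changed with the scaling.

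Levels were compared between genes as reads on the coding region (CDS) in CPM per kilobase. Ass1 was the densest at 917 ± 178 (SD, n = 14 libraries), 48th of 11736 genes. Cps1 followed at 661 ± 88.1 and rank 71. They kept their order in 14 of 14 libraries, with Ass1 1.16 to 1.68 times as dense as Cps1. Otc and Asl did not differ beyond their spread on this measure, whereas per kilobase of the whole transcript Otc had 125 and Asl 219. Otc had 245 ± 28.7 (rank 169), Asl 237 ± 63.9 (rank 175), and Otc was the higher in 7 of 14 libraries. Sds had 125 ± 58.8 (rank 331) and Hal 104 ± 22.2 (rank 409), in an order that held in 6 of 14 libraries. Gls2, taken here as its shortest model, had 62.7 ± 7.95 (rank 651), and Nags 18.2 ± 2.51 (rank 1756). Both stood below Hal in every library, and this Gls2 model was 3.01 to 4.33 times as dense as Nags. The long form of Gls2 had 69.8 ± 8.41, and in the replicate 2 library of CT12 it stood above Hal, at 60.4 against 56.3. The cycle thus ran from Ass1 to the regulator Nags over a wide range of ribosome density.

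**Figure D4:**
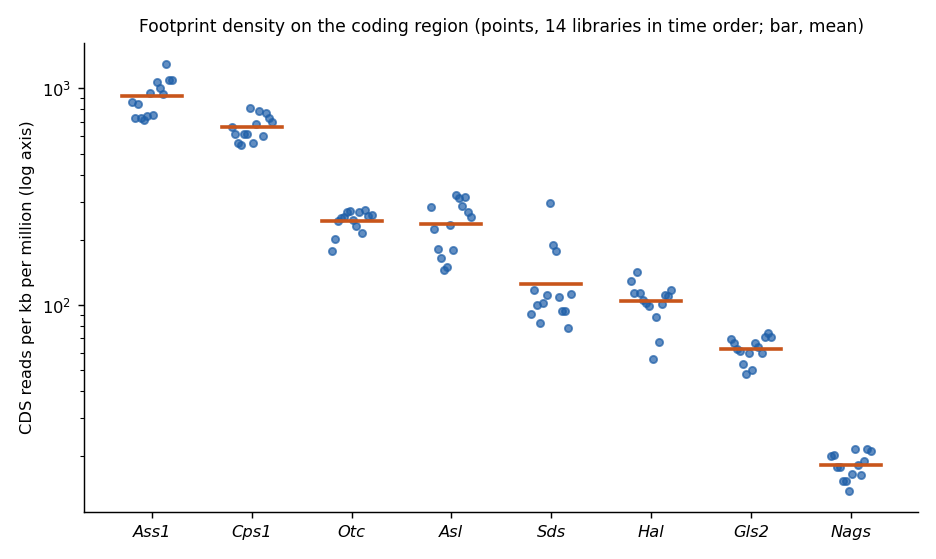
Reads on the coding region in CPM per kilobase with TMM scaling (vertical axis, log scale) for 8 enzymes in the order of their means. Each point is 1 of 14 libraries from CT0 on the left to CT24 on the right within a gene, and each bar is the mean, from 917 for Ass1 to 18.2 for Nags. Gls2 is drawn for its shortest model.

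Reads on the leader, per nucleotide and against the coding region of the same transcript, split the genes. The ratio was 1.38 for Cps1 (0.728 to 2.00 over the 14 libraries), 1.18 for Ass1 (0.813 to 1.67) and 1.04 for Otc (0.673 to 1.63). These 3 stood at percentiles 91.2, 88.4 and 84.5 of 16838 transcripts, whose median was 0.351 and of which 16.9% lay above 1. Sds was at the middle with 0.355. Nags had 0.183, Asl 0.176 and Hal 0.0830, each below 1 in all 14 libraries. Between these groups no library of Cps1, Ass1 or Otc fell to the highest library of Sds, which was 0.631. The place of Otc depends on the length of its leader, taken as 78 bases where the annotation has 132. With the longer leader its ratio would be lower, as would that of Asl (82 and 131 bases). As a share of leader and coding reads together, the leader held 12.3% for Ass1, 7.14% for Otc, 4.20% for Cps1 and 1.09% for Asl. Cps1 and Ass1, each with a uORF, are in the upper group with Otc, whose leader was not searched, while Hal has a uORF and the lowest ratio of the 7 genes with 1 transcript. Reads were placed by the ribosomal A site, and how reads on 1 position were shared between leader and coding region beyond this is not given in the sources used here.

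**Figure D5:**
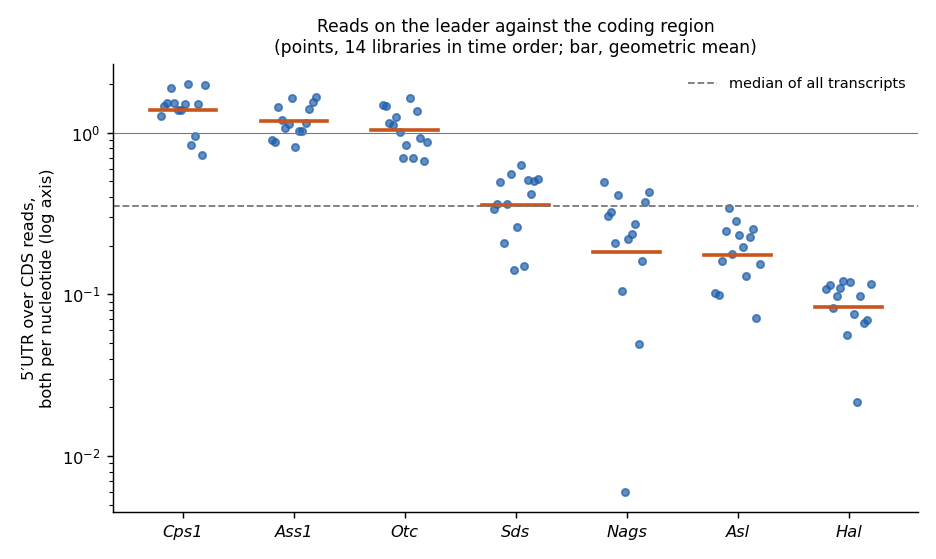
Reads on the leader over reads on the coding region, both per nucleotide (vertical axis, log scale), for the 7 genes with 1 transcript. Each point is 1 of 14 libraries and each bar the geometric mean; Cps1, Ass1 and Otc lie near 1 and Sds, Nags, Asl and Hal near or below the median of all transcripts (dashed, 0.351).

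For Gls2 the share depends on the transcript model. The long form had 476 leader reads of 107213 in all and a ratio of 0.0505. The 2 shorter models, whose coding regions start further into the gene, had 32.3% and 49.9% of their reads in the leader, and this part of their leader overlaps coding exons of the long form, so those reads cannot be told apart from its translation.
The ratio of leader to coding reads gave no call in any member. The limma test called 0 of 7640 transcripts (0.0%), 377 of which had an unadjusted p under 0.05, and none of the 11 members was among those. The smallest unadjusted p among them was 0.087, for Asl, whose leader held 0.58% of the reads at CT0 and 1.49% at CT8 on average. Leader counts were small for some, with 0 to 43 reads per library for Nags and 77 to 443 for Asl, against 3330 to 12601 for Cps1. Reads on the region after the coding region were few, from 0.019% for Asl to 1.17% for Nags.

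Genes around the members were taken from 3 lists. Of 20 genes of nitrogen supply and transport, 19 were tested and 8 called, with 5 peaks between CT9 and CT15. Over all genes 11.2% were called, and 28.3% of the 1320 called genes peaked in that interval. In this list the median peak to trough was 0.43 against 0.44 over all genes, an order that turned without CT12 (0.47 against 0.43). The largest differences were those of Slc7a2, a carrier of arginine and other cationic amino acids (1.58, peak CT10.4, adjusted p = 3.2e-05 in edgeR), Slc38a2, a carrier of small neutral amino acids (1.37, peak CT11.4, adjusted p = 1.9e-05), and Gpt2, a mitochondrial alanine aminotransferase (0.92, peak CT15.6, adjusted p = 0.00065). Slc7a2 had 435 ± 96.4 CPM at CT12 and 136 ± 15.8 CPM at CT20 (SD, n = 2). Glud1, glutamate dehydrogenase, passed narrowly and peaked with Asl and Ass1 (0.62, CT19.0, adjusted p = 0.046), but not with plain total counts (adjusted p = 0.066) or without CT12 (adjusted p = 0.063). The ornithine carrier Slc25a15 had 0.35 (adjusted p = 0.14) and the aspartate-glutamate carrier Slc25a13 0.39 (adjusted p = 0.081), and neither passed. The other aspartate-glutamate carrier, Slc25a12, named after its values were seen, passed with 0.79 (CT14.0, adjusted p = 0.0048) at a mean of 7.46 CPM, but not with plain total counts (adjusted p = 0.18) or without CT12 (adjusted p = 0.051). Car5a, the mitochondrial carbonic anhydrase (0.16, adjusted p = 0.74), Oat, ornithine aminotransferase (0.32, adjusted p = 0.35), and Glul, glutamine synthetase of pericentral cells (0.27, adjusted p = 0.25), did not pass either. With plain total counts 2 of the 8 calls remained, those of Slc7a2 and Slc38a2, and without CT12 there were 5.

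Of 31 genes of other amino acid breakdown all were tested and 9 called, where 11.2% of all genes were called. The median peak to trough was 0.31 against 0.44 over all genes. The medians stood the other way with plain total counts, at 0.68 for the list and 0.65 over all genes. The largest were Gldc and Amt, both parts of the glycine cleavage system that frees ammonia from glycine. Gldc had a peak to trough of 1.11 (CT23.9, adjusted p = 0.00050 in edgeR) and Amt 1.11 (CT2.9, adjusted p = 0.00021). Amdhd1, which acts 2 steps after Hal in histidine breakdown, came next with 1.07 (CT4.1, adjusted p = 0.00048) and 101 ± 12.8 CPM at CT4 against 44.9 ± 11.1 CPM at CT16 (SD, n = 2). Uroc1, named here after its values were seen because it acts between Hal and Amdhd1, had 0.19 (adjusted p = 0.63). Tat, tyrosine aminotransferase, had 0.90 (CT17.0, adjusted p = 0.021), and did not pass with plain total counts (adjusted p = 0.056). Sdsl, the relative of Sds, had a mean of 5.30 CPM and 0.47 (adjusted p = 0.35). With plain total counts 5 of the 9 calls remained, Gldc, Amt and Amdhd1 among them.

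Of 14 regulators of these enzymes 5 were called, each with a peak between CT9 and CT15, where 11.2% of all genes were called and 28.3% of those peaked in that interval. Without CT12 there were 2 calls, Pck1 and Ppara (named after its values were seen), and Cebpb (adjusted p = 0.099) and Ppargc1a (adjusted p = 0.39) no longer passed. The median of the list was 0.42 against 0.44 over all genes. That order turned without CT12 (0.46 against 0.43) and without the CT20 replicate 2 library (0.54 against 0.47). Pck1, the gluconeogenic enzyme kept in this list as a readout of fasting signals, had 1.92 (CT11.5, adjusted p = 3.2e-06 in edgeR). The coactivator Ppargc1a had 1.66 (CT12.0, adjusted p = 0.040), at a mean of only 1.24 CPM and with 2.68 ± 1.70 CPM at CT12 (SD, n = 2). The transcription factor Cebpb had 1.02 (CT13.2, adjusted p = 0.014). Klf15, a regulator of amino acid breakdown (0.23, adjusted p = 0.58), and the glucagon receptor Gcgr (0.13, adjusted p = 0.81) did not pass. Only the call of Pck1 remained with plain total counts. Of the 7 periportal markers besides the members, 1 was called, which was Pck1 again, and of 13 pericentral markers 3 were called, beside 11.2% of all genes. The refits of the 3 lists were chosen after their values were seen.

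The genes most like each member were sought among 8166 genes with at least 100 reads per library on average, by Pearson's r of log2(CPM + 1) over the 14 libraries. Among the 3 genes most like Asl were Ppp1r3b, a glycogen-targeting phosphatase subunit (r = 0.93), and Ahcy, S-adenosylhomocysteine hydrolase (r = 0.92). Ppp1r3b had a fitted peak at CT19.9 and a peak to trough of 2.00, and Ahcy 1.47 at CT18.3. Hal was most like Tle3 (r = 0.94), Stra6l (r = 0.89) and Ces1e (r = 0.88), with peaks from CT1.9 to CT2.4. Sds was most like Slc39a14, a zinc and iron carrier, Camk2b and Snx10 (r = 0.88 to 0.89), with peaks from CT12.8 to CT14.1. Among the 3 nearest to Ass1 were Dbt and Mme (both r = 0.86). For Cps1 the nearest were Dpyd, which degrades pyrimidines (r = 0.92), Cnn3 (r = 0.90) and Pi4ka (r = 0.88), and for Otc Stag2, Mmut and Cand1 (r = 0.87 to 0.88). Nags was nearest to Hexim1, Retsat and Sgpp1 (r = 0.89 to 0.90) and Gls2 to Dcxr, Slco2b1 and Cyp4f14 (r = 0.88 to 0.90). Among the members close pairs were Nags with Gls2, Ass1 with Asl (r = 0.78, rho = 0.72) and Cps1 with Ass1 (r = 0.75, rho = 0.69). These values describe 14 shared libraries on 1 scale. The deviations of Cps1 and Ass1 from their time means had r = 0.86, in which the mice and the scaling of their libraries cannot be told apart.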

How the data were processed

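The deposited tables give, for each RefSeq transcript, raw counts of reads in the leader, coding and trailing regions, with the length of each. The authors clipped adapters, removed reads aligning to rRNA with Bowtie2 2.1.0.0, mapped the rest to mm10, kept exact matches at 1 location (SAMtools 0.1.19.0, per the submitters' processing notes) and assigned each read to an A site. How transcripts sharing a read were counted is not given in the sources used here. The length columns, given by the authors, are an unlabelled other number in nucleotides. Of 28167 transcripts, 27840 were named through a RefSeq table and 116 through a GENCODE table. Members and lists were chosen with earlier results of these data known.

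The 3 regions were summed, transcripts with a mean under 10 counts were left out, and a 24-h cosine and sine were fitted with edgeR 4.0.16 (TMM, quasi-likelihood). CT24 was set against CT0 in an edgeR fit of 7 times. The ratio of leader to CDS reads, log2 with a pseudocount of 0.5, was fitted with limma 3.58.1. Adjusted p-values are Benjamini-Hochberg over all transcripts tested, with a threshold of 0.05. Standard errors of size and time come from a least-squares cosine on log2 CPM. JTK_CYCLE was rewritten and tested on simulated data, as were the other fits. The highest-count transcript stands for a gene. Members and the genes always listed are named, and in each list the called genes with 1 of the 3 largest differences. Alternatives were other scalings, DESeq2 1.42.0, other count minimums, CDS reads, 1 transcript per gene, and leaving out each library and time.

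Total counts were 40593197 to 90458783 per library. The CT16 replicate 2 counts were even in 100% of nonzero transcripts, against 48.9% to 50.4% in the other libraries, and its file stands for 2 sequencing runs. Halving them changed no call of a member. The time label of the CT24 samples reads CT00, and the title was used. Replicate numbers were not treated as pairing the mice. The study describes 2 mice per time, and p-values measure the spread between these libraries. Values of 1 member and of some other genes are not reported here, while counts over the members and lists include them.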

Additional observations from a re-analysis of the deposited data

How the results depend on the processing

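Asl kept its call under each of the 35 alternatives tried, with peaks from CT18.7 to CT20.0, and no called member reversed. Sds kept its call in all 14 fits without 1 library and in 17 of 21 other settings, and Hal in 14 and 19. The number of transcripts called, 1947 in the main test, was 1427 with plain total counts, 2539 with DESeq2, 1225 in the test of any difference among times, 1250 with 1 transcript per gene, 1159 without CT8, 1059 without CT12, and 3840 and 3069 with JTK_CYCLE on total and TMM CPM. The number of member transcripts called, 3, was 8 with DESeq2, 6 with a count minimum of 100 (2009 of 12029 transcripts in all), 6 with CDS reads only (1833 of 17023), 5 without CT20 (1968 of 17307), 6 and 5 with JTK_CYCLE, and 2 both in the test of any difference and without CT12. Leaving out 1 library gave 3 to 8 member calls and 1499 to 2062 calls in all. Of these, 6 came without CT16 replicate 1 (the Gls2 transcripts added, 1873 of 17301 in all) and 8 without CT20 replicate 1 (Ass1, Nags and Gls2 added, 2062 of 17336). In the main edgeR test the adjusted p was 0.057 to 0.061 for the Gls2 transcripts, 0.062 for Ass1 and 0.10 for Nags. The cause of the gain was not tested. For CT24 against CT0 the 0 calls became 1 with total counts, 6 with the replicate block and 0 to 2 without 1 library (2 without CT0 replicate 1), none of them a member. With the replicate block the rhythm test called 1916 transcripts and 3 member transcripts, and it changed no call of a member. The replicate numbers were not treated as pairs: 3 of 21 pairs of times had differences between mice that correlated over 0.1 (r from -0.12 to 0.30). Mup took a larger share of the reads in replicate 2 than in replicate 1 at every time but CT20. Whether the replicate number marks a batch was not tested. The ratio of leader to CDS reads gave 0 calls in every setting. With 2 mice per time and 1 cycle, a rhythm here is a shape over 7 times, and a p that missed the threshold does not show that an enzyme was constant.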
